A study of Mus musculus with 8 samples.

Results

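The receptors through which group 2 innate lymphoid cells (ILC2) sense alarmins and growth cytokines were examined as 10 genes of the 50686 in the deposited count table, found by matching Ensembl identifiers to symbols. They were Il1rl1 and Il1rap for IL-33, Il17rb and Il17ra for IL-25, Crlf2 and Il7r for thymic stromal lymphopoietin (TSLP), Il7r for IL-7, Il2ra for IL-2, Il9r for IL-9, Il18r1 for IL-18, and Il2rg, the common gamma chain used with IL-2, IL-7 and IL-9. Bulk RNA sequencing had been done on ILC2 from the thymus of C57BL/6 mice with a plck-Id1 transgene, in which the proximal Lck promoter drives Id1, an inhibitor of the E protein transcription factors. The cells had been transduced with the MIGR1 retroviral vector, which carried GFP alone or GFP with E47-ER, sorted for GFP and expanded. E47 is an E protein encoded by Tcf3, and the ER part is an estrogen receptor domain whose ligand, 4-hydroxytamoxifen, releases the fusion's activity. The 4 groups were GFP at 4 h, E47-ER at 4 h, GFP at 16 h and E47-ER at 16 h of 4-hydroxytamoxifen, with 2 libraries each. All groups carried the Id1 transgene and all received the drug, so a difference between E47-ER and GFP cells that existed before the drug cannot be told apart from one that followed it. The culture contained IL-7, IL-25, IL-33 and a further additive that the design text writes as ILC2, so ligands of at least 3 of the receptor complexes were present. Whether the replicates were separate mice or cultures is not stated in the labels, and p-values cover nothing beyond the variation among these libraries, possibly only technical.

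ILC2 are lymphocytes without antigen receptors that answer to cytokines released by damaged or stimulated tissue. The alarmins IL-33, IL-25 and TSLP act through heteromeric receptors. IL-33 signals through the adaptor MyD88 and IL-25 through Act1, both toward NF-kB, whereas IL-2, IL-7, IL-9 and TSLP signal through JAK kinases and STAT5. In ILC2 these signals drive expansion and the secretion of IL-5 and IL-13. The question put to the data was whether E47-ER changed the abundance of these receptor transcripts, early or late.

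Library totals ran from 8813782 to 18677675 counts, and 13644 genes passed the filter on low counts, among them all 10 receptor genes. Replicate 2 of GFP at 16 h had the lowest total and differed most from the rest. Its mean correlation with them was 0.954, against 0.980 to 0.983 for each of the others. Its scaling factor was 0.854 against 1.01 to 1.03, and its deviations followed transcript length (r = -0.385 across genes, against 0.047 to 0.199). Counts of receptor genes called at an adjusted p under 0.05 are therefore also given without that library, over 14146 genes. It is called the length-skewed control. Leaving it out leaves replicate 1 as the only GFP library at 16 h, which is then assumed to vary like the other groups. Esr1 reads, which the ER part can supply, matched the labels at 43.8 to 54.5 CPM (counts scaled to a common library size) in the 4 E47-ER libraries and 0.211 to 0.932 CPM in the 4 GFP libraries. The 9 ILC2 markers, which include Gata3, Rora and Il1rl1 itself, summed to 15830 to 17699 CPM in the E47-ER libraries and to 19239 to 25970 CPM in the GFP libraries, with none at 0. Most of that sum was the cytokines Il13 (5615 to 6698 against 8064 to 9851 CPM) and Il5 (3576 to 3893 against 4605 to 7767 CPM). Rora (128 to 158 against 69.3 to 81.1 CPM) and Thy1 (279 to 345 against 165 to 235 CPM) lay the other way. The T cell list was at 43.3 and 48.7 CPM in E47-ER cells against 32.0 and 38.6 CPM in GFP cells at 16 h, mainly Cd3e, and overlapped at 4 h. The macrophage and monocyte list was at 19.6 and 24.99 against 15.7 and 12.6 CPM at 16 h, mainly Cd68, and overlapped at 4 h. The B cell list summed to at most 13.4 CPM, the natural killer cell list to 0.216 and the erythroid list to 0.533 CPM. The ILC3 list ran from 61.4 to 74.7 CPM, mainly Il22. In the mast cell and basophil list 2 of 6 genes, Fcer1a and Mcpt4, had no count in any library. That list ran from 23.1 to 31.0 CPM in the E47-ER libraries and from 37.4 to 133 CPM in the GFP libraries, nearly all of it the basophil protease Mcpt8. The stroma and epithelium list ran from 10.8 to 22.3 CPM in E47-ER cells and from 5.56 to 9.45 CPM in GFP cells, mainly Epcam. The part of these cells or genes in the receptor results was not tested.

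E proteins bind the E-box, CANNTG, a pattern that reads the same on both strands. The DNA before the start of the 4 receptor genes that passed the test at either time once the length-skewed control was left out is shown to place these letters, a choice made after their values were seen. Windows of 300 bases, from 250 before to 50 after each start, were taken from RefSeq on GRCm38.p6, and 9 of the 10 members matched, with 12 windows. The stretches below are the parts of those 250 bases outside annotated exons, 5′ to 3′ on the strand of the gene, with CANNTG in capitals.
Il17rb, chr14:30008897-30009022, minus strand: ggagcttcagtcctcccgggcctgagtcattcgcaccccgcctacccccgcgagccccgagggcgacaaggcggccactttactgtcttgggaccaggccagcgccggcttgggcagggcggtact
Il18r1, chr1:40465416-40465551, plus strand: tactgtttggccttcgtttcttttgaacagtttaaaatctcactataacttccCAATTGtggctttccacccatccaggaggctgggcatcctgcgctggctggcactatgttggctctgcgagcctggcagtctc
Il2ra, chr2:11642542-11642791, plus strand: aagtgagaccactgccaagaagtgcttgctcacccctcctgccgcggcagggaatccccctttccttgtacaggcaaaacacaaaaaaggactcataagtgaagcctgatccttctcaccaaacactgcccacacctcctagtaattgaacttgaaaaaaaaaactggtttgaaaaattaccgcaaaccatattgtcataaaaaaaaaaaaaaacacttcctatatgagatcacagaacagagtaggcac
Il7r, chr15:9529877-9530040, minus strand: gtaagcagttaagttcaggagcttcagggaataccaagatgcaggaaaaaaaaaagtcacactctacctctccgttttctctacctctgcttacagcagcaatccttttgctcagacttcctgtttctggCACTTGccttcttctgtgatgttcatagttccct

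The Il17rb stretch is the whole of the 126 bases between the start of Il17rb and that of Chdh, a choline dehydrogenase gene that runs in the opposite direction. It holds no CANNTG, but the first exon of Chdh beyond it has a pair 163 and 181 bases before the Il17rb start, at chr14:30009054-30009077: CACCTGgcctgcggcacaCACCTG. The Il18r1 stretch is the whole of the 136 bases between the end of Il1rl1 and the start of Il18r1, which lie on the same strand, and its CAATTG is 83 bases before the start. The Il7r stretch has a CACTTG 34 bases before the RefSeq start, and the Il2ra stretch has none. GENCODE places 1 of 4 Il7r transcripts, a noncoding one, 300 bases further upstream, so this stretch is intronic for that transcript and lies upstream of the other 3. Over the full windows 5 of the 9 matched genes held CANNTG (Il1rl1, Il17rb, Il7r, Il9r and Il18r1) and 4 did not (Il1rap, Crlf2, Il2ra and Il2rg). By window, 8 of the 12 (66.7%) held it, against 72.3% of all 32851 windows of that length. CAGGTG or its reverse complement CACCTG was in 4 of the 12 windows (33.3%), those of Il17rb, Il9r and Il18r1, against 20.2% of all windows, and windows of 1 gene can overlap. These matches describe letters and are not measured binding sites.

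The 10 transcripts differed widely in level. Scaled per kilobase of merged exon, Il2ra, the IL-2 receptor alpha chain CD25, was the highest at a mean of 653 CPM per kb over the 8 libraries, and ranked 56 among the 13644 genes tested. Il1rl1, which encodes the IL-33 receptor ST2, followed at 280 and Il2rg at 195 CPM per kb. Il2rg shares 728 of its 2387 merged exon bases with Gm20489, a gene on the same strand with 1 count in all. How reads of those shared bases were assigned is unknown, so the Il2rg level and its place in this order may be too low. Il7r was at 162, Crlf2 at 95.3 and Il9r at 28.2 CPM per kb. Il17ra, the shared IL-17 receptor subunit, was at 16.5, Il18r1 at 10.01 and Il17rb at 2.86 CPM per kb. Il1rap, the accessory chain that IL-33 needs for signalling, was the lowest at 0.725 CPM per kb and ranked 11250. The libraries of neighbours in this order overlapped only for Il1rl1 with Il2rg and for Il2rg with Il7r, as the plot of length-scaled levels shows.

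**Figure D1:**
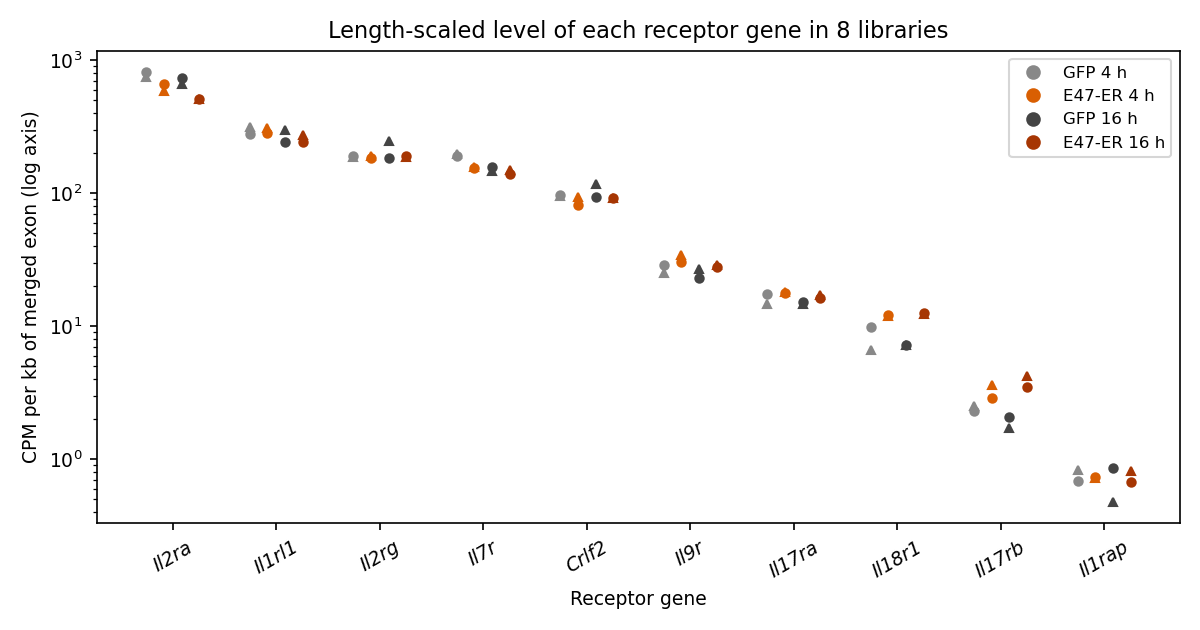
Level of each receptor gene in CPM per kb of merged exon on a log axis, 1 point per library (circle replicate 1, triangle replicate 2), colored by group. Il2ra lies between 511 and 811 CPM per kb and Il1rap between 0.481 and 0.863 in all 8 libraries.

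The ligand-binding and partner chains of the alarmin receptors were thus unequal, least so for TSLP. There Crlf2 was at 48.4 to 79.7% of Il7r per kb, highest in the length-skewed control. Il1rap stood at 0.161 to 0.354% of Il1rl1 per kb, and at 0.310 to 0.684% when the longest transcript was used as the length, since the merged exons of Il1rap (11360 bases) far exceed its longest transcript (4520 bases). The Il1rl1 count sums the membrane and soluble forms of ST2, and the Il1rap count likewise sums its forms, so neither ratio refers to the signalling form alone. For the IL-25 receptor the order was the other way round, with the specific chain Il17rb at 11.8 to 24.5% of the shared chain Il17ra. The 4 E47-ER libraries were at 16.2 to 24.5% and the 4 GFP libraries at 11.8 to 16.97%, and the replicate pairs did not overlap at 16 h but did at 4 h. In bulk RNA a lower transcript level in each cell and fewer cells with the transcript cannot be told apart.

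Il1rl1 showed no difference between E47-ER and GFP cells that the data could resolve. At 4 h it was at 1930 and 2150 CPM in GFP cells and 1943 and 2138 CPM in E47-ER cells. Levels at 16 h were 1682 and 2063 CPM in GFP cells and 1667 and 1872 CPM in E47-ER cells. The groups overlapped at both times. The log2 fold change was 0.00 at 4 h (95% interval -0.37 to 0.37, adjusted p = 0.9999) and -0.08 at 16 h (-0.45 to 0.28, adjusted p = 0.757) in edgeR's quasi-likelihood test, with Benjamini-Hochberg adjustment over all genes tested. Without the length-skewed control, the 16 h value was 0.07 (-0.15 to 0.28), of the opposite sign.

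Il1rap rested on 41 to 178 counts per library. GFP cells had 7.78 and 9.41 CPM and E47-ER cells had 8.32 and 8.20 CPM at 4 h. After 16 h GFP cells had 9.81 and 5.46 CPM and E47-ER cells had 7.68 and 9.23 CPM. The highest and the lowest library of all 8 were the GFP pair at 16 h, and the groups overlapped at both times. The log2 fold changes were -0.06 (adjusted p = 0.9999) at 4 h and 0.11 (adjusted p = 0.816) at 16 h, the latter -0.22 without the length-skewed control.

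Il17rb, the IL-25-binding chain, had the largest log2 fold change of the 10 genes at 16 h. Its level was 8.53 and 9.30 CPM in GFP cells and 10.7 and 13.5 CPM in E47-ER cells at 4 h. The 16 h levels were 7.66 and 6.39 CPM in GFP cells and 12.95 and 15.6 CPM in E47-ER cells. Every E47-ER library was above every GFP library of the same time, with 48 to 271 counts per library. The log2 fold change was 0.44 ± 0.20 (SE) at 4 h (adjusted p = 0.880) and 1.01 ± 0.21 (SE) at 16 h, or 2.02-fold, with an adjusted p of 0.0598. When the length-skewed control was left out, the 16 h value was 0.90 ± 0.21 (SE), or 1.86-fold, and passed the test (adjusted p = 0.00762). The 4 h value was 0.26 without replicate 2 of E47-ER at 4 h. The level was low, and 141 exon bases of Il17rb overlap Actr8 on the other strand, a gene with 3876 counts in all against 1293 for Il17rb. The strand setting of the counting is not given in the sources used here, so reads of that overlap cannot be assigned. Actr8 had a log2 fold change of -0.28 at 16 h (adjusted p = 0.271), and Chdh, from the other side of the start shown above, had 0.83 (adjusted p = 0.175).

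Il17ra, which also serves IL-17A, was at 152 and 128 CPM in GFP cells and 154 and 158 CPM in E47-ER cells at 4 h. After 16 h the values were 131 and 126 CPM in GFP cells and 142 and 149 CPM in E47-ER cells. E47-ER libraries were the higher at both times, by log2 fold changes of 0.16 and 0.18 that did not pass the test (adjusted p = 0.9999 and 0.409). Its direction at 16 h depended on the length correction, under which it was -0.08.

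Crlf2, the TSLP-binding chain, was at 144 and 142 CPM in GFP cells and 122 and 141 CPM in E47-ER cells at 4 h. The later levels were 140 and 176 CPM in GFP cells and 137 and 138 CPM in E47-ER cells. The GFP libraries were the higher at both times, but at 16 h only replicate 2 of GFP was clearly so. The log2 fold changes were -0.12 (adjusted p = 0.9999) and -0.20 (adjusted p = 0.403), and the 16 h value was -0.04 without that library.

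Il18r1, which encodes the IL-18-binding chain, was higher in every E47-ER library than in every GFP library of its time. It was at 47.9 and 32.1 CPM in GFP cells and 58.4 and 58.0 CPM in E47-ER cells at 4 h. At the later time it was at 35.0 and 34.6 CPM in GFP cells and 60.8 and 59.0 CPM in E47-ER cells. The 4 E47-ER libraries lay close together, and the GFP libraries at 4 h were the widest pair. The log2 fold change was 0.54 ± 0.18 (SE) at 4 h (adjusted p = 0.619) and 0.78 ± 0.19 (SE) at 16 h (adjusted p = 0.0898), or 1.46-fold and 1.72-fold. With the length-skewed control left out, both passed, at 0.55 (adjusted p = 0.0461) and 0.77 (adjusted p = 0.0174). The 4 h value turned on which GFP library served as control, at 0.28 without replicate 2 of GFP at 4 h and 0.86 without replicate 1.

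Il18r1 begins 136 bases after the end of Il1rl1 on chromosome 1 (Il1rl1, ENSMUSG00000026069, at 40429570 to 40465415 of GRCm38), so the pair shares a locus. Il18r1 was at 2.14 to 3.55% of Il1rl1 per kb in the 4 GFP libraries and 3.88 to 5.22% in the 4 E47-ER libraries, with no overlap. Of the other genes of this cluster, Il18rap, the accessory chain of the IL-18 receptor, had log2 fold changes of 0.33 at 4 h and 0.44 at 16 h (adjusted p = 0.895 and 0.157). Without the length-skewed control, its 16 h value was 0.43 and passed the test (adjusted p = 0.0393). Il1r2, the decoy receptor for IL-1, had 0.32 at 4 h, which passed only without that library (adjusted p = 0.0131), and 0.09 at 16 h. Il1r1 and Il1rl2 held 151 and 120 counts in all and could not be resolved. The order of the 6 genes along the chromosome and their fold changes are drawn in the plot of the IL-1 receptor cluster.

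**Figure D2:**
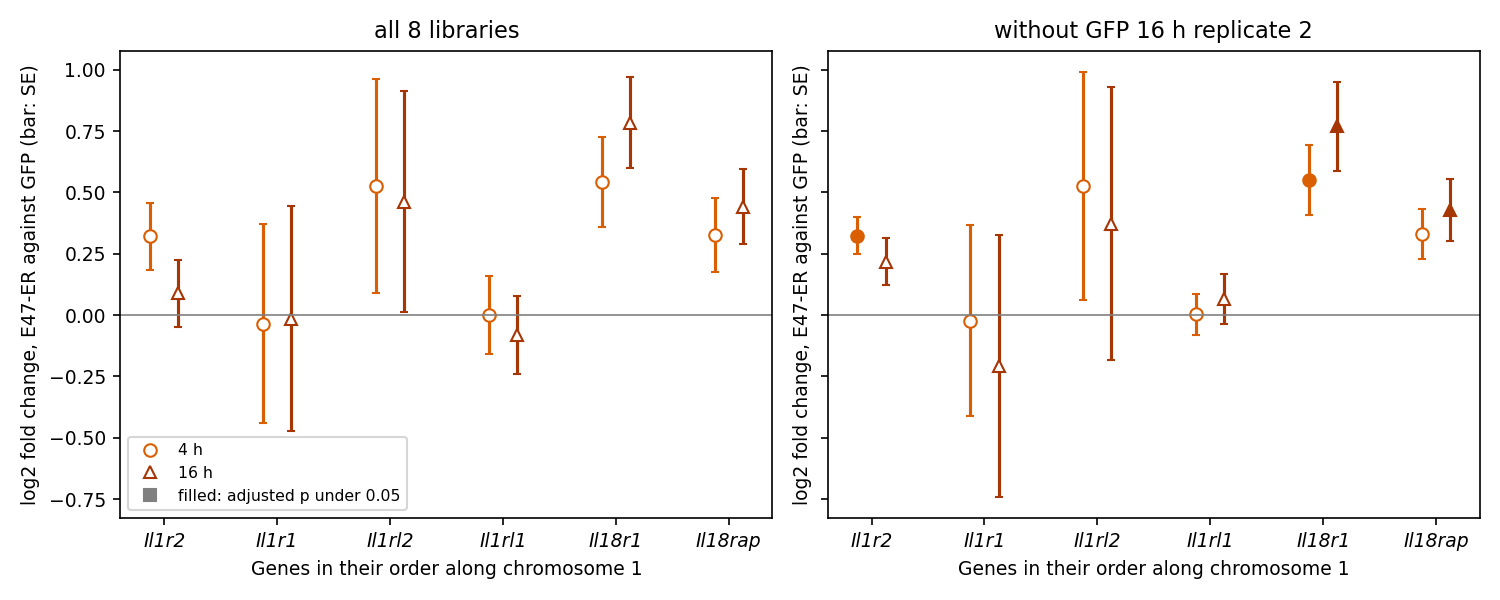
Log2 fold change of E47-ER against GFP (bars, SE) for the 6 genes of the IL-1 receptor cluster in chromosomal order, at 4 h (circles) and 16 h (triangles), with all 8 libraries on the left and without the length-skewed control, GFP 16 h replicate 2, on the right. Il1rl1 sits at 0.00 and -0.08 beside Il18r1 at 0.54 and 0.78, and filled symbols, which mark an adjusted p under 0.05, appear only on the right.

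Il2ra, the chain that gives the IL-2 receptor its high affinity, was the most abundant of the 10 transcripts and lower in every E47-ER library than in every GFP library of its time. It was at 4631 and 4268 CPM in GFP cells and 3757 and 3339 CPM in E47-ER cells at 4 h. By 16 h the values were 4194 and 3789 CPM in GFP cells and 2918 and 2920 CPM in E47-ER cells. The log2 fold change was -0.33 ± 0.14 (SE) at 4 h (adjusted p = 0.856) and -0.45 ± 0.14 (SE) at 16 h (adjusted p = 0.142), the latter 0.731 of the GFP level. When the length-skewed control was left out, Il2ra passed at both times, with -0.32 ± 0.08 (SE) at 4 h (adjusted p = 0.0192) and -0.53 ± 0.10 (SE) at 16 h (adjusted p = 0.000814). The 4 h value rests on no library of 16 h and hardly moved, whereas its SE, which draws on the spread over all groups, fell.

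Il7r, used by both IL-7 and TSLP, was at 883 and 913 CPM in GFP cells and 727 and 735 CPM in E47-ER cells at 4 h. Levels at 16 h were 736 and 688 CPM in GFP cells and 644 and 698 CPM in E47-ER cells. The groups were apart at 4 h and overlapped at 16 h, when GFP cells were at the level that E47-ER cells had at 4 h. The log2 fold change at 4 h was -0.30 ± 0.13 (SE, adjusted p = 0.829), and without the length-skewed control it was -0.29 ± 0.07 (SE, adjusted p = 0.0230). At 16 h the log2 fold change was -0.09 (95% interval -0.37 to 0.20, adjusted p = 0.675). The difference between the 16 h and 4 h values was 0.21 ± 0.18 (SE), which did not pass (adjusted p = 0.711), so the effect was not shown to differ between times.

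Il2rg was at 457 and 447 CPM in GFP cells and 435 and 455 CPM in E47-ER cells at 4 h, overlapping. After 16 h the values were 437 and 586 CPM in GFP cells and 453 and 449 CPM in E47-ER cells. The length-skewed control was alone above the others, and the log2 fold change of -0.18 at 16 h became 0.04 without it. Relative to its partner, Il2ra was at 399 to 423% of Il2rg per kb in GFP cells and 307 to 361% in E47-ER cells at 4 h. The later ratios were 269 and 272% in E47-ER cells, against 401% in replicate 1 and 270% in replicate 2 of GFP. The size of these ratios is subject to the overlap of Il2rg with Gm20489 described above.

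Il9r, for the ILC2 growth factor IL-9, was at 143 and 125 CPM in GFP cells and 150 and 171 CPM in E47-ER cells at 4 h. At the later time it was at 114 and 132 CPM in GFP cells and 137 and 142 CPM in E47-ER cells. E47-ER libraries were the higher at both times, with log2 fold changes of 0.26 and 0.18 that did not pass with all libraries (adjusted p = 0.9996 and 0.444) or without the length-skewed control (0.26 and 0.28, adjusted p = 0.103 and 0.125).

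**Figure D3:**
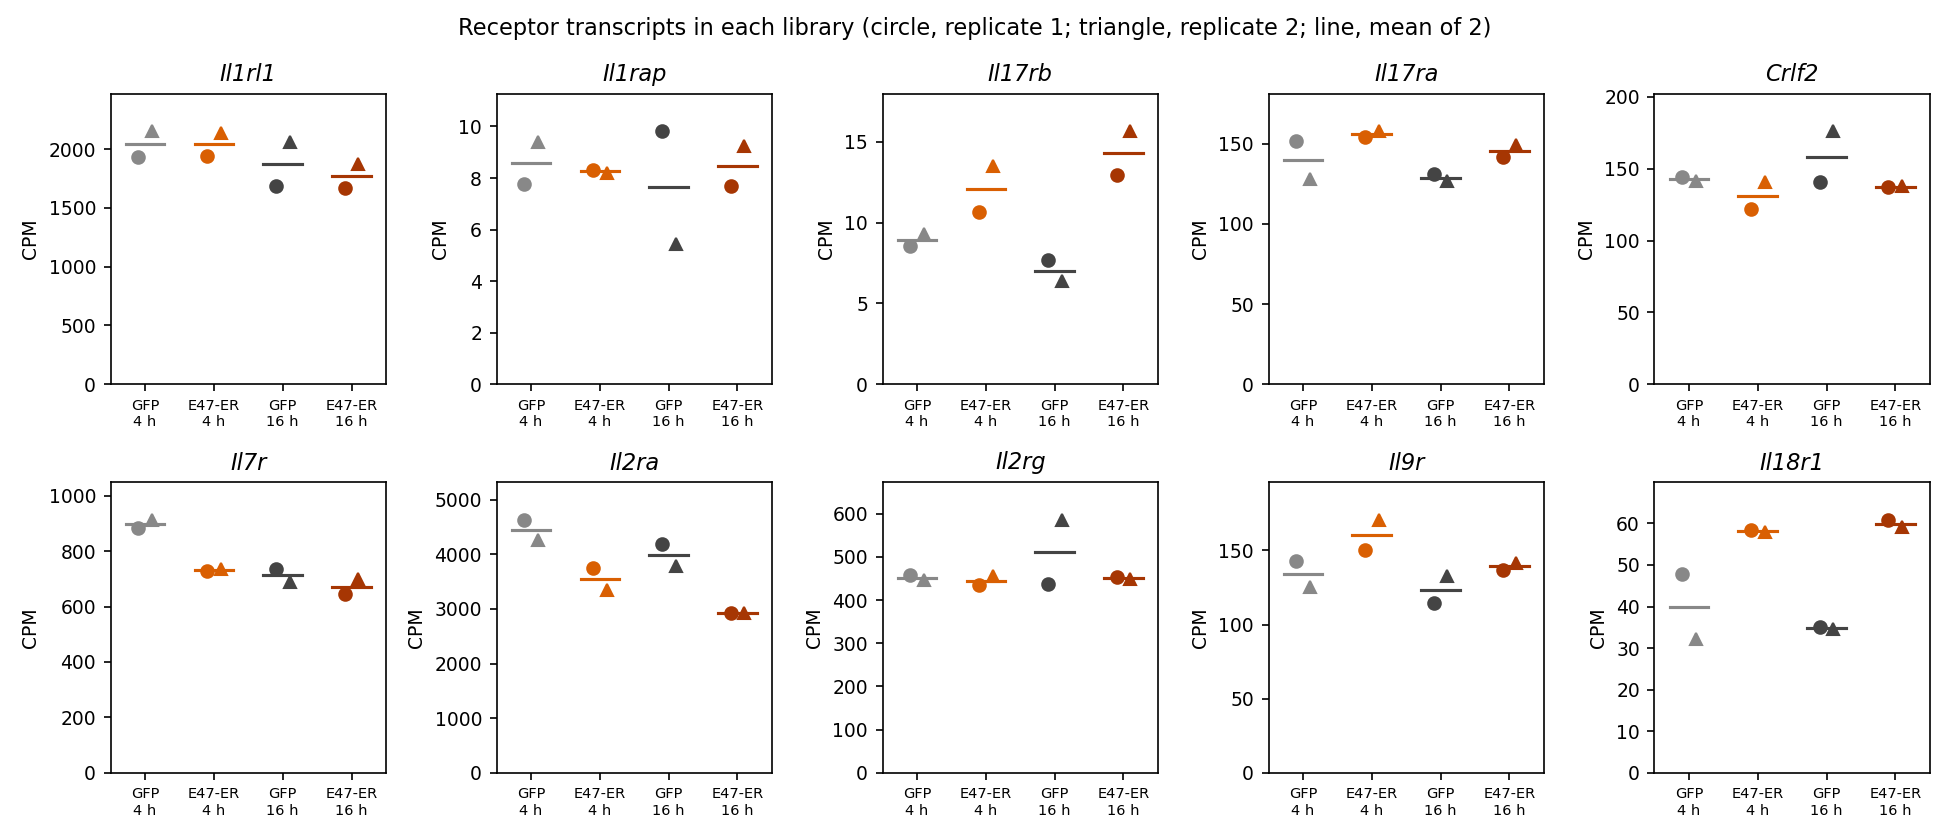
CPM of each receptor gene in each of the 8 libraries (circle replicate 1, triangle replicate 2, line the mean of 2), with every axis starting at 0. Il17rb and Il18r1 are higher and Il2ra is lower in E47-ER than in GFP libraries at both times, and Il2rg is highest in the length-skewed control, at 586 CPM.

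None of the 10 genes passed an adjusted p of 0.05 with all 8 libraries in edgeR's test in any of the 5 comparisons. At 4 h, 0.286% of all genes tested were called, and at 16 h 1.59%. At an unadjusted p under 0.05, 2 receptor genes were past the threshold at 4 h (Il7r and Il18r1) and 3 at 16 h (Il17rb, Il2ra and Il18r1), against 5.82% of all genes at 4 h and 3273 of 13644 at 16 h, so that the 16 h count was near the background. DESeq2 called 0 at 4 h and those 3 at 16 h, against 122 and 1052 of 13644 genes. Limma voom with library quality weights called 1 at 4 h (Il18r1) and 0 at 16 h, against 401 and 52 of 13644. With the length-skewed control left out, 3 of 10 were called at 4 h (Il18r1 higher, Il7r and Il2ra lower) against 4.33% of all genes. At 16 h, 3 of 10 were called (Il17rb and Il18r1 higher, Il2ra lower) against 8.92%. Leaving out replicate 1 of GFP at 16 h instead left the other library as the only GFP control at that time. Then 3 of 10 were called at 4 h against 4.29% of all genes, and 5 of 10 at 16 h against 48.6%, a background at which the count says little about the receptors.

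By library position alone, 7 of the 10 genes had groups that did not overlap at 4 h and 6 of 10 at 16 h, against 45.4 and 54.3% of all genes tested. Both times gave 4 genes on the higher side (Il17rb, Il17ra, Il9r and Il18r1). On the lower side were Crlf2, Il7r and Il2ra at 4 h and Crlf2 and Il2ra at 16 h. The median log2 fold change of the 10 genes was -0.01 at 4 h and 0.01 at 16 h, beside 0.00 and -0.01 over all genes tested, with 5 genes positive and 5 negative at each time.

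**Figure D4:**
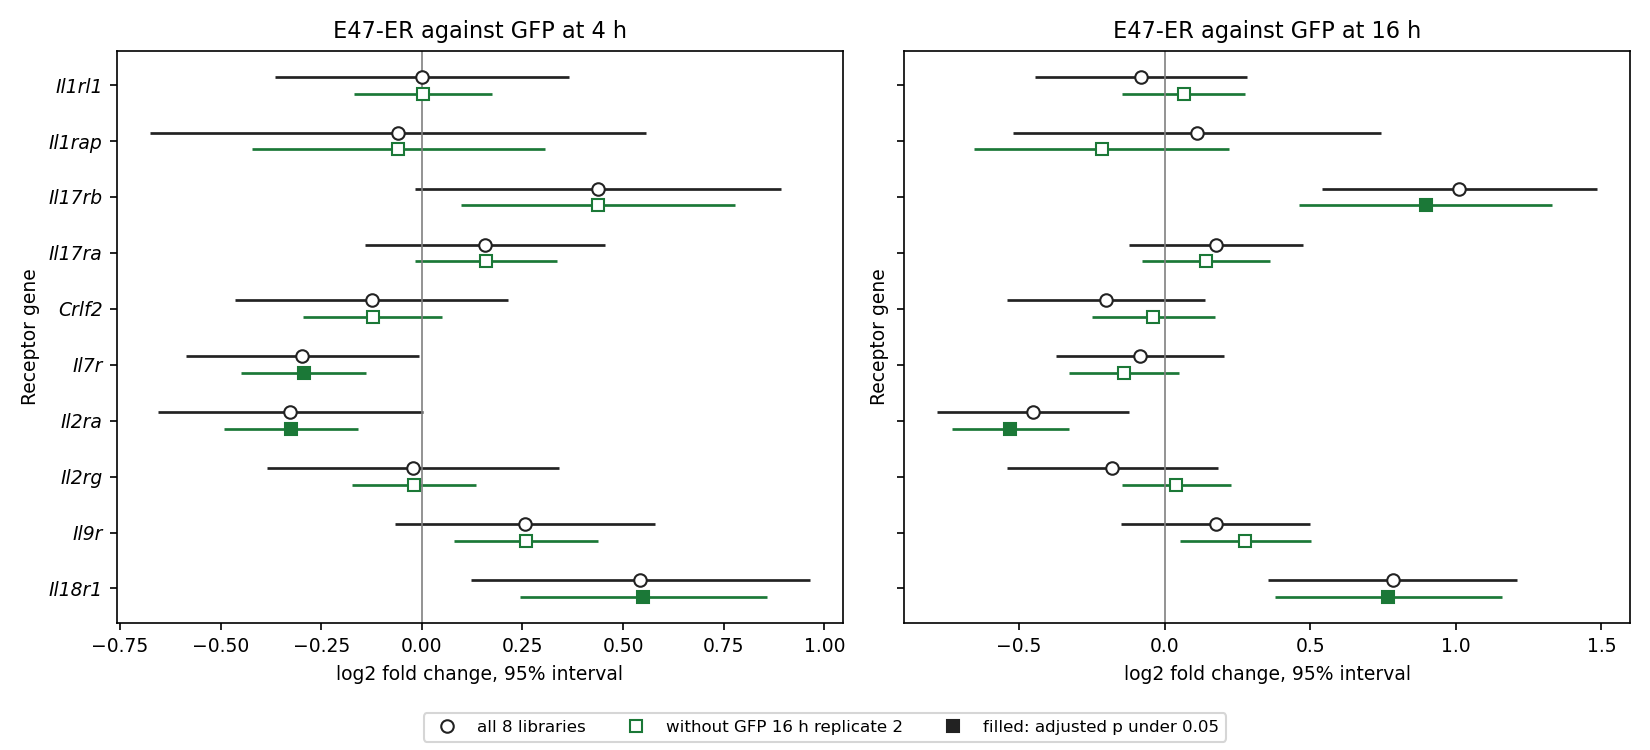
Log2 fold change of E47-ER against GFP with its 95% interval for each receptor gene at 4 h (left) and 16 h (right), from all 8 libraries (circles) and without the length-skewed control, GFP 16 h replicate 2 (squares). Filled symbols passed an adjusted p of 0.05: Il7r, Il2ra and Il18r1 at 4 h and Il17rb, Il2ra and Il18r1 at 16 h, all without that library.

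No receptor gene passed edgeR's test of the difference in E47-ER effect between 16 h and 4 h, in which 0% of all genes were called, or 0.0424% without the length-skewed control. None of the 10 reached an unadjusted p under 0.05 there. The largest such difference was that of Il17rb, 0.57 ± 0.28 (SE, adjusted p = 0.699). With replicate 1 of GFP at 16 h left out, Il2rg alone was called, against 35.5% of all genes. In GFP cells, 16 h against 4 h gave no receptor call (0% of all genes with all libraries, 0.00707% without the length-skewed control), and the smallest p was that of Il7r at -0.33 ± 0.13 (SE, adjusted p = 0.500). Without replicate 1 of that group 5 of the 10 were called against 41.8% of all genes. In E47-ER cells no receptor gene was called over time with all 8 libraries (0.0147% of all genes), and in that fit none reached an unadjusted p under 0.05. DESeq2 and voom called none of the 10 in these 3 comparisons. Over all genes they called 0 for the difference and for time in GFP cells. For time in E47-ER cells they called 24 and 377 of 13644. Without the length-skewed control, Il2ra alone was called, at -0.29 ± 0.08 (SE, adjusted p = 0.0485), against 3.08%. That value was -0.19 when replicate 1 of E47-ER at 4 h was left out instead. The time comparisons share their libraries with the comparisons of E47-ER and GFP.

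Short and long transcripts behaved differently in the length-skewed control, which bears on Il2rg and Crlf2. These have the shortest longest transcripts of the 10, 1670 and 1405 bases, and deviated in that library by 0.34 and 0.31 on the log2 scale from their mean over 8 libraries. A smooth of deviation on transcript length over all genes gave 0.34 and 0.44 for genes of those lengths. For Il17rb the smooth gave 0.07 and the observed value was -0.66, and for Il18r1 they were -0.16 and -0.43. For Il2ra they were -0.19 and 0.04, for Il1rl1 -0.27 and 0.10 and for Il1rap -0.20 and -0.56. For Il17ra they were -0.36 and -0.17, for Il9r -0.20 and -0.06 and for Il7r -0.10 and -0.12. With transcript length as an offset in the fit, Il17rb (1.05, adjusted p = 0.0358) and Il2ra (-0.58, adjusted p = 0.0372) passed at 16 h and Il18r1 (0.68, adjusted p = 0.0828) did not. The signs of Crlf2 and Il2rg at 16 h turned under that offset, to 0.10 and 0.06.

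**Figure D5:**
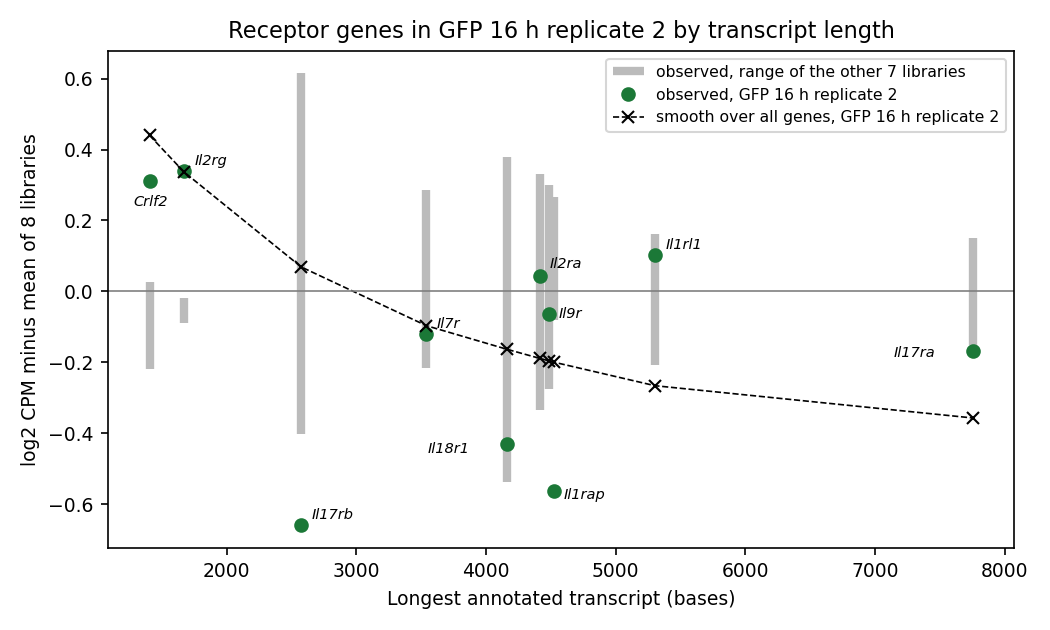
Deviation of each receptor gene in the length-skewed control, GFP 16 h replicate 2, from its mean log2 CPM over 8 libraries (green points), against its longest annotated transcript, with the range of the other 7 libraries (grey bars) and the smooth over all genes for that library (crosses). Il2rg and Crlf2 lie at 0.34 and 0.31, above all other libraries. Il17rb, Il1rap and Il17ra lie at -0.66, -0.56 and -0.17, below all other libraries.

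For the wider pathway the background was 37 genes higher and 2 lower at 4 h and 171 higher and 46 lower at 16 h, of 13644 tested. Without the length-skewed control it was 374 higher and 238 lower at 4 h and 621 higher and 641 lower at 16 h, of 14146. Among 6 other tested genes, IL-1 family receptors and the IL-18 binding protein gene Il18bp, 1 was higher and none lower at 16 h. This was Sigirr, an inhibitory receptor of the family, at 43.7 and 36.4 CPM in GFP cells and 66.9 and 68.1 CPM in E47-ER cells (log2 fold change 0.75, adjusted p = 0.0374). It also passed at 4 h without the length-skewed control (0.45, adjusted p = 0.00425). Among 14 other type I and gamma chain cytokine receptors, 1 was higher and none lower at each time. This was Il6ra, the IL-6-binding chain, at 0.822 and 0.317 CPM in GFP cells and 6.02 and 5.40 CPM in E47-ER cells at 4 h. By 16 h the values were 1.55 and 1.07 CPM in GFP cells and 7.35 and 9.004 CPM in E47-ER cells. Its log2 fold changes were 3.35 (adjusted p = 0.0214) and 2.59 (adjusted p = 0.0168), from a low level. Il21r, another gamma chain partner, passed only without the length-skewed control (0.77 at 4 h and 0.92 at 16 h). So did Csf2rb and Csf2rb2 at 4 h (0.35 and 0.39), near-identical copies whose reads the counting may have split between them.

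Receptors for interferons and the IL-10 family gave 2 higher of 7 tested at 16 h. These were the interferon receptor chains Ifnar1 (0.92, adjusted p = 0.0240) and Ifngr1 (0.92, adjusted p = 0.0329), and at 4 h none of the 7 passed. With the length-skewed control left out, Ifnar2 passed too at 16 h (0.46) and Ifnar1 at 4 h (0.42). Their 16 h levels did not overlap between groups, with Ifnar1 at 75.0 and 58.7 CPM in GFP cells and 124 and 131 CPM in E47-ER cells. Ifngr1 was at 109 and 104 CPM in GFP cells and 192 and 211 CPM in E47-ER cells. The only tested receptor of the IL-17 family outside the 10, Il17rd, did not pass at either time.

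Downstream of the IL-1 and IL-17 receptors, 1 of 25 tested signalling genes was higher at 16 h and none lower, namely Map3k8, a kinase of the NF-kB and ERK routes (0.83, adjusted p = 0.0238), which also passed at 4 h without the length-skewed control (0.45, adjusted p = 0.00337). When the length-skewed control was left out, 5 of 25 were higher, against 621 of 14146 genes: Map3k8, Irak2, Traf3ip2, Tab2 and Tnfaip3, the last of which encodes the NF-kB inhibitor A20. The median log2 fold change of the 25 at 16 h was 0.24 with all libraries and 0.07 without that control, beside -0.01 and 0.00 over all genes. None of 11 JAK and STAT genes passed with all libraries. Without that library Stat4 was higher (0.53, adjusted p = 0.0361) and Stat5a, which the IL-2 and IL-7 receptors activate, was lower (-0.48, adjusted p = 0.0150) at 16 h. Of 14 STAT5 feedback and target genes none passed with all libraries. Without it, Socs3 was higher and Osm, Lif and Myc were lower at 16 h, with Myc at -0.57 (adjusted p = 0.00256), and Socs3, Osm and Myc passed the same way at 4 h. Cish, a classical STAT5 target, had a log2 fold change of 0.31 at 16 h (adjusted p = 0.229).

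Of 14 ligand genes, 5 passed the filter on low counts and none was called with all libraries. Il25 had no count in any library, and Tslp, Il2 and Il7 had 2, 13 and 37 counts in all. Il33 had 553 counts. With the length-skewed control left out, it was lower at 4 h (-1.15, adjusted p = 0.00616), and Il17f was higher (1.02, adjusted p = 0.00726). Of 9 tested genes for receptor shedding and trafficking, which include the sheddases Adam10 and Adam17, none passed with all libraries, and without that library Usp38 was higher at 16 h (0.38, adjusted p = 0.0301).

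Il17rb, chosen for its log2 fold change at 16 h, was compared with 8706 genes of at least moderate level for likeness of pattern over the 8 libraries. The closest were Bhlhe40 (r = 0.983), Acox3 (r = 0.979) and Calcoco1 (r = 0.978). Over 7 libraries, without the length-skewed control, they were Jund (r = 0.993), Acox3 (r = 0.987) and Calcoco1 (r = 0.987). These correlations are descriptions over libraries that share the same 4 groups.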

How the data were processed

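Total RNA of 8 libraries in 4 groups of 2 had been sequenced. The authors deposited unnormalized read counts per Ensembl gene. Per the submitters' processing notes the build was mm10 and DESeq2 was used. Aligner, counter, strand setting and annotation were not given in the sources used here. Symbols, coordinates and lengths came from GENCODE M21 (GRCm38), which matched 50376 of 50686 identifiers. Counts were analysed in edgeR 4.0.16 (R 4.3.3) with filterByExpr at a minimum count of 10, TMM scaling and a robust quasi-likelihood fit of 1 mean per group to all 8 libraries. Two-sided p-values received Benjamini-Hochberg adjustment over all genes tested, and genes were called under 0.05. CPM values use TMM-scaled library sizes. Fits were also run on simulated counts. These held no length-skewed library, so that run does not speak to results that turn on it. Alternatives included DESeq2 1.42.0 and limma 3.58.1.

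The members, gene lists and alternatives were chosen with earlier results of these data known. All 10 members were named. List genes were named where called, among the smallest 16 h p-values, or as partner, neighbour or ligand of a member. Patterns were matched for the member with the largest 16 h change, since none was called.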

Additional observations from a re-analysis of the deposited data

How the results depend on the processing

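Groups of 2 libraries limit the precision of every value, and Il1rap and Il17rb also rest on few reads. In edgeR's quasi-likelihood test with all 8 libraries and the settings given above, the count of receptor genes called was 0 in all 5 comparisons. At 4 h it was 1 under voom quality weights, 2 with only the 4 libraries of that time, and 0 to 3 when 1 library was left out. At 16 h it was 2 without a filter on low counts, 3 with DESeq2, 2 with the transcript length offset, and 0 to 5 when 1 library was left out. Leaving out 1 library gave 0 to 1 for the difference between times, 0 to 5 for time in GFP cells and 0 to 1 for time in E47-ER cells. The libraries whose loss added calls were replicates 1 and 2 of GFP at 16 h, which voom weighted at 0.202 and 0.228 against 1.29 to 1.91 for the other 6. With 1 mean fitted to each group of 2, such weights cannot tell which library of a pair is the odd one. The cause of the added calls was not tested. Over all genes, calls at 4 h were 39 of 13644 with all libraries. Of the same 13644, calls were 19 with library totals only, 122 with DESeq2, 401 with voom and 70 with the length offset. Without a filter they were 165 of 29929, and with only that time's libraries 442 of 13087. At 16 h calls were 217 with all libraries, 1052 with DESeq2, 52 with voom and 368 with the length offset, of 13644. Without a filter 1816 of 29929 were called at 16 h. Library totals alone moved the median of all genes at 16 h to 0.11. Signs turned for values near 0. At 4 h, Il1rl1 was -0.0107 without a filter, -0.00053 with voom, -0.0207 with the length offset and -0.0025 with only that time's libraries, and -0.0761 to 0.0784 when 1 library was left out. Il2rg was 0.013 with the length offset and -0.0572 to 0.00831 when 1 library was left out, and Il1rap then ran from -0.188 to 0.0851. At 16 h, library totals gave Il1rl1 0.0589 and Il7r 0.0366, and the length offset gave Il1rap -0.00972, Il17ra -0.0783, Crlf2 0.0999 and Il2rg 0.0613. With 1 library left out at 16 h, Il1rl1 ran from -0.20 to 0.0655, Il1rap from -0.22 to 0.66 and Il2rg from -0.36 to 0.0399. The difference between times for Il18r1 then ran from -0.0667 to 0.52, and its time value in GFP cells from -0.47 to 0.11. When 1 library was left out, Il18r1 ran from 0.28 to 0.86, Il17rb from 0.26 to 0.60, Il2ra from -0.42 to -0.25 and Il7r from -0.32 to -0.27 at 4 h, and Il17rb from 0.88 to 1.19, Il18r1 from 0.77 to 0.81 and Il2ra from -0.53 to -0.35 at 16 h. Differences between replicates correlated over genes at -0.090 to 0.202 between groups. With 1 such difference per group, these values cannot settle whether replicate numbers pair the libraries. A replicate block gave 0 receptor calls in all 5 comparisons and 11 and 54 calls over all genes at 4 and 16 h. Where 1 library remained in a group, its spread was taken from the other groups. Over all alternatives the adjusted p at 16 h ran from 0.000448 to 0.523 for Il17rb, 0.000622 to 0.526 for Il18r1 and 0.000814 to 0.588 for Il2ra.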
